A study of Homo sapiens with 12 samples.

Results

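In LNCaP cells kept without dihydrotestosterone (DHT), 88 of 15419 genes tested were called different between the sh_TMEFF2 and sh_scramble lines. That count depended on the test, with 180 called by DESeq2. The genes called in both deposited columns of the table included lower kallikrein and higher UGT2B transcripts. This comparison set 3 sh_TMEFF2 -DHT against 3 sh_scramble -DHT libraries, 6 of the 12 RNA-seq libraries of the study, over all expressed genes. LNCaP is an established, androgen-responsive human prostate cancer line. The sh_TMEFF2 cells expressed a short hairpin RNA against TMEFF2 from the U6 promoter of the lentiviral plasmid pLKO.1-puro, the sh_scramble cells carried a scrambled hairpin in the same vector, and both lines had been selected in puromycin. The sample records list 17 days with the hairpin for every library. All 6 cultures of this comparison spent 24 h in medium with charcoal-stripped serum, which removes androgens, and then 24 h with ethanol, the vehicle. The other 6 libraries were the same 2 lines given 10 nM DHT for those last 24 h, and they entered the same fit for its estimates of spread. The 3 repeats of a group were separate treatments and RNA extractions that came from 2 transductions, and which repeat came from which transduction was not given in the sources used here, so p-values measure the spread between these samples only. Each library appears as 2 columns of estimated counts in the table, and these were summed. The summed totals without DHT ran from 19450866 to 22612046 (median 20906889), and 15419 of 34643 gene symbols passed the filter on low counts and were tested.

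TMEFF2 is a transmembrane protein with follistatin-like and EGF-like domains that is found mainly in brain and prostate. The androgen receptor is a steroid-activated transcription factor. In luminal prostate cells it binds DNA elements built from inverted copies of a hexamer and raises transcripts such as those of KLK3, which encodes prostate-specific antigen. Some UGT2B enzymes, UGT2B15 and UGT2B17 among them, attach glucuronic acid to steroids, DHT included, which makes those steroids soluble and inactive. In LNCaP cells UGT2B15 and UGT2B17 are known to be repressed by androgen.

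The study's methods name 3 hairpins against TMEFF2 (shTMEFF2-0, shTMEFF2-1 and shTMEFF2-2), and the sources used here do not say which of them the sequenced cells carried. In the paper's western blots of LNCaP cells, shTMEFF2-1 and shTMEFF2-2 lowered TMEFF2 protein appreciably and shTMEFF2-0 did not. The paper also shows TMEFF2 mRNA for its silencing hairpins with and without DHT. The shTMEFF2-0 sequence was not analysed here. Target sites of the other two are shown because the labels rest on a hairpin against this gene, in lower case and 5′ to 3′ along the transcript.
shTMEFF2-1: cgtctgtcagttcaagtgcaa
shTMEFF2-2: gcgcttctgatgggaaatctt
Among GENCODE 44 transcripts each 21-base site matched TMEFF2 alone, and both lay in the coding sequence of ENST00000272771 on the minus strand of chromosome 2 (GRCh38). The shTMEFF2-1 site joined 16 bases of exon 2 to 5 bases of exon 3, at chr2:192184479-192191895, and the shTMEFF2-2 site was inside exon 6, at chr2:191999141-191999161.

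In these RNA-seq libraries without DHT the transcript of the targeted gene did not separate the lines. Protein, for which the paper reports silencing, is not measured by them. Levels are given in CPM, the count of a gene scaled to a common library size. TMEFF2 read 77.8, 73.8 and 103 CPM in the sh_scramble libraries. It read 68.6, 39.3 and 81.7 CPM in the sh_TMEFF2 libraries. The groups overlapped, since sh_TMEFF2 replicate 3 was above 2 of the 3 control libraries and replicate 2 was the lowest of all 6. The means were 85.0 ± 15.9 (SD, n = 3) and 63.2 ± 21.7 CPM (SD, n = 3), a log2 fold change of -0.43 (SE 0.25) with an adjusted p of 0.503 in edgeR's quasi-likelihood test. Leaving out 1 library at a time moved that value from -0.65 to -0.18, the latter without sh_TMEFF2 replicate 2. The direction of every difference given here is therefore that between libraries as labelled.

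Luminal markers of the line were mostly at high levels in all 6 libraries. KRT8 read 431 to 545 CPM, KRT18 316 to 373 CPM, HOXB13 427 to 522 CPM, CDH1 677 to 741 CPM and FOLH1 2172 to 2624 CPM, and EPCAM 100.1 to 118 CPM. KRT19 was low, at 1.19 to 2.44 CPM, and ACPP, at 310 to 750 CPM, was among the called genes. Of the basal markers KRT5 was at 0 and KRT14 and TP63 did not pass 0.0675 and 0.202 CPM. The T-cell marker CD3E was at 0, and CD14, CDH5, DCN, LUM and COL1A2 stayed under 0.648 CPM. Other markers of those cell types were not at 0. VWF of endothelial cells read 14.7 to 26.3 CPM and PECAM1 0.633 to 1.64 CPM, the leukocyte marker PTPRC 4.67 to 7.76 CPM, and the fibroblast collagens COL1A1 18.7 to 30.4 CPM and COL3A1 1.17 to 2.74 CPM. None of these was called between the lines, and their part in the results was not tested. ACTA2, a smooth muscle actin, read 1.99 to 3.74 CPM in sh_scramble and 5.15 to 8.52 CPM in sh_TMEFF2 libraries, without overlap, at a log2 fold change of 1.39 (edgeR adjusted p 0.0860).

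Genes were called where the fold change reached 1.5 and the adjusted p did not exceed 0.05, and 88 genes (0.571% of those tested) were called between the lines. Of these, 46 were higher (0.298%) and 42 lower (0.272%) in sh_TMEFF2 cells. Protein-coding genes made up 82 of the 88, beside 14007 of the 15419 tested. The adjusted p alone was met by 172 genes, and 2080 genes (13.5%) had an unadjusted p under 0.05. The median absolute log2 fold change over all genes tested was 0.12 and the median log2 fold change was -0.00. In 87 of the 88 called genes the 3 libraries of a line lay entirely above or below those of the other, against 18.5% of all genes tested. In SMN2 they overlapped. The 88 genes were picked by the difference between these same libraries, so their separation largely follows from the choice and is no further support. The first principal component over all 12 libraries (36.4% of variance) ran mainly with DHT in the control line. The second (11.5%) placed all 6 sh_scramble libraries at 3.36 or above and all 6 sh_TMEFF2 libraries at -3.09 or below. On the third (7.98%), sh_TMEFF2 -DHT replicates 1 and 2 lay at -22.0 and -21.8 and replicate 3 at 4.82. Without that replicate the calls rose to 73 higher and 44 lower. Without any other library of the comparison they dropped to between 14 and 29 higher and between 17 and 31 lower.

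**Figure D1:**
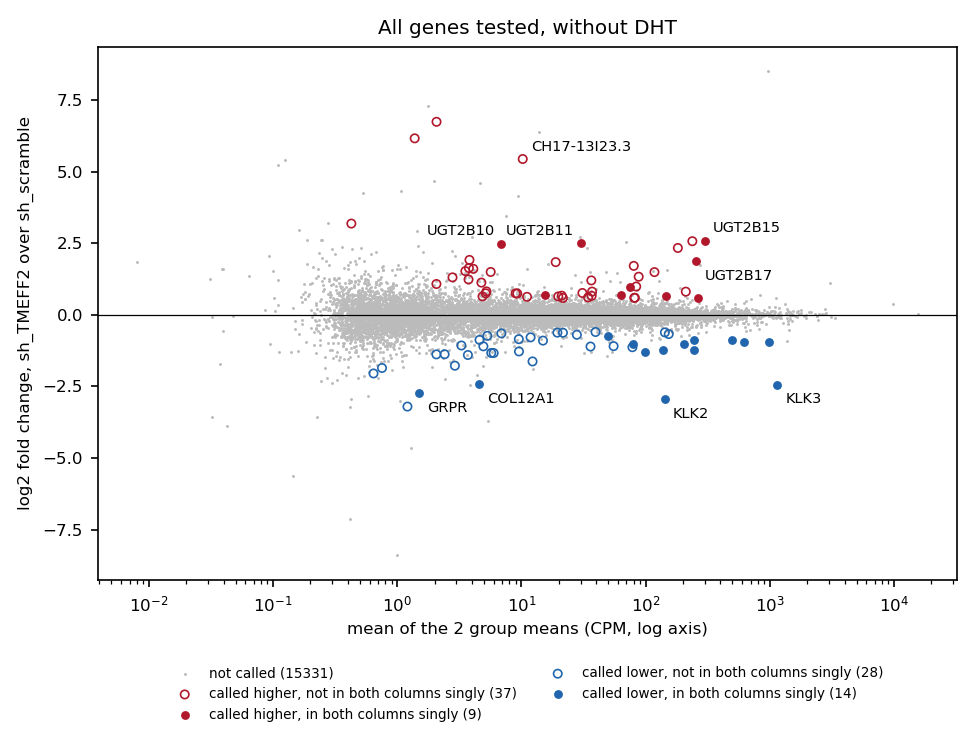
Log2 fold change of sh_TMEFF2 over sh_scramble without DHT against the mean of both group means in CPM (log axis), 1 point for each of 15419 genes. Filled points are the 23 genes called in both columns singly and open points the other 65 called genes. KLK2 and KLK3 lie lowest among the filled points above 100 CPM and the UGT2B genes highest among all filled points.

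Because some genes rose in only 1 of the 2 columns of a library, each call was checked in each column alone. In both columns singly, 23 of the 88 genes were called in the same direction (0.149% of genes tested), 9 higher and 14 lower. Another 11 genes were called in column 1 only, 21 in column 2 only (15 higher and 6 lower) and 33 in neither column. The 23 genes are the core of what follows. Of these 23, 15 kept their call whichever of the 12 libraries was left out.

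**Figure D2:**
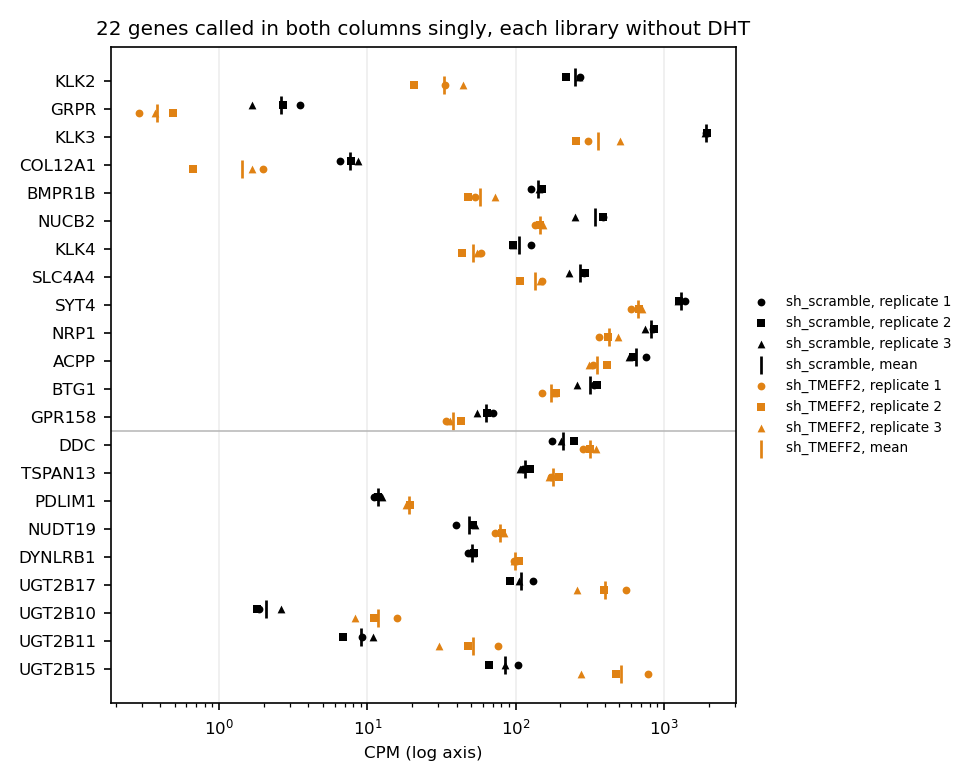
CPM (log axis) of 22 of the genes called in both columns singly, in each of the 6 libraries without DHT. Symbols mark the replicates and vertical bars the group means, with 13 lower genes above the line and the 9 higher genes under it. In no gene do the black (sh_scramble) and orange (sh_TMEFF2) symbols overlap, in the same libraries on which these genes were called.

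The kallikreins are secreted serine proteases encoded side by side on chromosome 19, and KLK2, KLK3 and KLK4 are those of the prostate. KLK2 read 270, 219 and 266 CPM in sh_scramble libraries. It read 33.1, 20.7 and 44.2 CPM in sh_TMEFF2 libraries. Every sh_TMEFF2 value was thus far under the lowest control, with a log2 fold change of -2.95 (SE 0.23, edgeR adjusted p 5.32e-05), a 7.70-fold lower level. In bulk RNA, a lower level in each cell and fewer expressing cells cannot be told apart. KLK3 read 1921, 1953 and 1900.5 CPM against 305, 255 and 509 CPM. The controls agreed closely and the sh_TMEFF2 libraries were spread, with replicate 3 the highest in both genes, and the log2 fold change was -2.43 (SE 0.23, adjusted p 0.000283). KLK4 read 127, 95.3 and 95.6 CPM against 58.0, 43.1 and 54.4 CPM, a log2 fold change of -1.03 (SE 0.14, adjusted p 0.00327). These 3 calls held in every leave-one-out fit and in both columns. KLK15, at 2.90, 3.34 and 4.21 CPM against 1.11, 1.42 and 1.49 CPM, was called lower in the sum (-1.38, adjusted p 0.0143) and in column 2, but not in column 1. It also lost its call without sh_TMEFF2 replicate 1 or 2 (adjusted p 0.0681 and 0.0653).

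Over chr19:50825289-50911395 (GRCh38) the 4 protein-coding kallikreins tested, KLK15, KLK3, KLK2 and KLK4, were all called lower. Of the 16 kallikreins listed, 6 were tested, counting the pseudogene KLKP1 (-0.84, adjusted p 0.148) and KLK14 (-0.25, adjusted p 0.879), which were not called. The median of the 6 was -1.20, beside -0.00 over all genes. KLK2 and KLK3 are close copies, so reads may have been shared between them, and the values carry no strand. Their RefSeq promoters are shown because the genes moved together. Each is the 250 bases before the RefSeq start (GRCh38.p14, plus strand, chr19:50854665-50854914 for KLK3 and chr19:50873189-50873438 for KLK2), with capitals on the best match to the androgen response element AGAACA, 3 bases of any kind, TGTTCT, searched on both strands.
KLK3: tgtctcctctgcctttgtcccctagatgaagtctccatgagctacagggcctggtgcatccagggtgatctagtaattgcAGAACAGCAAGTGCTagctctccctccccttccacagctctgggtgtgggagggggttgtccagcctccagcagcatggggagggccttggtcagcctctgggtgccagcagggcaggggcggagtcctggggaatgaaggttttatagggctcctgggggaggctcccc
KLK2: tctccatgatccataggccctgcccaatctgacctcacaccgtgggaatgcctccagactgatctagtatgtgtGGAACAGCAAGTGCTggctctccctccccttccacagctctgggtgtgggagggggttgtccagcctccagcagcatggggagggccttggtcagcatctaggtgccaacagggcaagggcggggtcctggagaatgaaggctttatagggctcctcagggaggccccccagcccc
The KLK3 window held a match with 2 mismatches, 170 bases before the start, and the KLK2 window one with 3 mismatches, 176 bases before. Of 35116 promoters of that length, 1.18% held a match with at most 2 mismatches and 9.17% with at most 3. The windows were identical at 205 of 238 aligned bases (86.1%).

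Outside the kallikreins, ACPP, which encodes prostatic acid phosphatase, read 750, 617 and 582 CPM against 330, 411 and 310 CPM (-0.89, SE 0.12, edgeR adjusted p 0.00454). BMPR1B, a type I receptor for bone morphogenetic proteins, read 126, 151 and 144 CPM against 52.9, 47.8 and 72.0 CPM (-1.28, SE 0.15, adjusted p 0.00149). In both genes the lines did not overlap and the call held in every leave-one-out fit.

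SYT4, NUCB2, SLC4A4 and NRP1 were also among the 14. SYT4, a synaptotagmin of secretory vesicles, read 1392, 1254 and 1242 CPM in sh_scramble and 603, 681 and 707 CPM in sh_TMEFF2 libraries. Its log2 fold change of -0.97 (SE 0.09, edgeR adjusted p 0.000325) had the smallest error of the 14. NUCB2, the precursor of the peptide nesfatin-1, read 389, 387 and 250 CPM against 136, 146 and 153 CPM (-1.24, adjusted p 0.00190), with control replicate 3 well under the other controls. SLC4A4, a sodium bicarbonate cotransporter, read 289, 293 and 229 CPM against 150, 108 and 145 CPM (-1.01, adjusted p 0.00451). NRP1, a co-receptor for semaphorins and VEGF, read 843, 852 and 739 CPM against 366, 418 and 488 CPM (-0.94, adjusted p 0.00117). In each of these 4 genes the groups lay apart and no left-out library ended the call.

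Among the remaining lower genes, COL12A1, a collagen of the fibril surface, read 6.56, 7.76 and 8.62 CPM against 1.97, 0.664 and 1.67 CPM (-2.42, SE 0.33, edgeR adjusted p 0.00454). GRPR, the receptor for gastrin-releasing peptide, was low in both lines, at 3.48, 2.67 and 1.66 CPM against 0.288, 0.487 and 0.371 CPM (-2.75, SE 0.37, adjusted p 0.00372). Both calls held in every leave-one-out fit. GRPR was outside the naming rule, which asks for 5 CPM, and is given because it was among the 14. BTG1, an antiproliferative gene, read 335, 352 and 258 CPM against 150, 186 and 182 CPM (-0.87, adjusted p 0.0143). GPR158, an orphan receptor, read 69.9, 64.3 and 54.6 CPM against 33.8, 42.9 and 36.0 CPM (-0.74, adjusted p 0.0214). BTG1 and GPR158 each lost the call without sh_TMEFF2 replicate 1 (adjusted p 0.0679 and 0.0867), sh_scramble replicate 1 (0.0618 and 0.0908) or sh_scramble replicate 2 (0.0725 and 0.0811).

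The UGT2B genes formed the largest rise among genes called in both columns. UGT2B15 read 103, 66.2 and 84.0 CPM in sh_scramble and 782, 478 and 275 CPM in sh_TMEFF2 libraries, a log2 fold change of 2.60 (SE 0.42, edgeR adjusted p 0.0143). UGT2B17 read 130, 91.0 and 105 CPM against 554, 392 and 261 CPM (1.89, SE 0.35, adjusted p 0.0258). In both genes sh_TMEFF2 replicate 1 was the highest and replicate 3 the lowest. UGT2B11 read 9.23, 6.88 and 10.8 CPM against 75.8, 47.9 and 30.3 CPM (2.51, SE 0.38, adjusted p 0.00776). UGT2B10 read 1.86, 1.80 and 2.59 CPM against 15.8, 11.1 and 8.26 CPM (2.49, SE 0.26, adjusted p 0.000614). The same order of the sh_TMEFF2 replicates, 1 above 2 above 3, stood in all 4 genes, and each lowest sh_TMEFF2 value was above the highest control.

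Only UGT2B10 of these 4 kept its call in all 12 leave-one-out fits. UGT2B15 lost it without sh_scramble replicate 1 (2.77, adjusted p 0.0520), replicate 2 (2.45, 0.0811) or replicate 3 (2.60, 0.0513). UGT2B17 lost it without any of those (adjusted p 0.0738, 0.121 and 0.0800) and without sh_TMEFF2 replicate 1 or 2 (0.0920 and 0.0837). UGT2B11 lost it without sh_scramble replicate 2 (2.36, adjusted p 0.0564). No left-out library turned a direction, and the log2 fold changes stayed between 1.59 and 2.90 over the 4 genes.

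Within chr4:68537173-69295050, which holds the UGT2B genes, 7 were tested and 5 called higher. The fifth was the pseudogene UGT2B27P, at 3, 0 and 2 counts against 12, 26 and 13 counts. It kept its call in 3 of the 12 leave-one-out fits and was tested in neither column singly. UGT2B28 read 0.769, 0.668 and 1.37 CPM against 3.08, 2.08 and 2.65 CPM (1.47, adjusted p 0.0829), and UGT2B7 differed by 0.32 (adjusted p 0.812). UGT2B coding sequences are similar, UGT2B15 and UGT2B17 most of all, so estimated counts may have been split among them. The promoters of UGT2B10 and UGT2B11 are printed because the genes had log2 fold changes of 2.49 and 2.51 without DHT and of 2.79 and 0.43 with DHT. Each is the 250 bases before the RefSeq start (GRCh38.p14, chr4:68815744-68815993 on the plus strand for UGT2B10 and chr4:69214749-69214998 on the minus strand for UGT2B11), all in lower case since neither held a match to the androgen response element within 3 mismatches.
UGT2B10: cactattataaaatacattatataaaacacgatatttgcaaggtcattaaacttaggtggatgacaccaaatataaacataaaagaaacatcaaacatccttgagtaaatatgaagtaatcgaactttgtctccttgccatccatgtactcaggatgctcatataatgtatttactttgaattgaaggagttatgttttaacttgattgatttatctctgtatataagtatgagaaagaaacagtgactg
UGT2B11: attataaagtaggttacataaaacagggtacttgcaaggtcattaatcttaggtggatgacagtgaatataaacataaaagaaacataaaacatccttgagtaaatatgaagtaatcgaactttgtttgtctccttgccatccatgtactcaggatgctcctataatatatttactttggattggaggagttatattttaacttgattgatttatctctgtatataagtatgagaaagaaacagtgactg
They were identical at 229 of 246 aligned bases (93.1%). The UGT2B15 window held no such match either, and 1 half-site AGAACA, which 12.4% of promoters held on either strand.

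The other 5 genes higher in both columns moved by smaller folds. DYNLRB1, a light chain of the dynein motor, read 47.5, 51.9 and 51.8 CPM in sh_scramble and 97.0, 105 and 96.7 CPM in sh_TMEFF2 libraries, a log2 fold change of 0.98 (SE 0.07, edgeR adjusted p 3.64e-05). DDC, which encodes aromatic L-amino acid decarboxylase, read 176, 247 and 203 CPM against 286, 317 and 348 CPM (0.60, SE 0.12, adjusted p 0.0316). TSPAN13, a tetraspanin, read 112, 125 and 107 CPM against 173, 195 and 168 CPM (0.64, SE 0.08, adjusted p 0.00190). In none of the 3 genes did the lines overlap. PDLIM1, a PDZ and LIM domain protein, rose by 0.69 (adjusted p 0.00229) and NUDT19, a hydrolase of the Nudix family, by 0.71 (adjusted p 0.0214). DYNLRB1 and PDLIM1 held in every leave-one-out fit. DDC lost its call without sh_TMEFF2 replicate 2 or 3 (adjusted p 0.103 and 0.0649) or sh_scramble replicate 1 or 3 (0.110 and 0.0870). NUDT19 lost it without sh_TMEFF2 replicate 2 (0.0879) or sh_scramble replicate 1 or 2 (0.0738 and 0.0591), and TSPAN13 without sh_TMEFF2 replicate 2, where its log2 fold change of 0.58 was under the fold limit.

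A different set of higher genes rose in column 2 and not in column 1. ARFGAP2, a GTPase-activating protein for ARF1, read 57.8, 63.1 and 58.3 CPM in column 1 of the sh_TMEFF2 libraries, next to 62.4, 62.0 and 61.6 CPM in column 1 of the controls. In column 2 it read 944, 464 and 341 CPM, against 61.4, 56.0 and 61.7 CPM. PPP1R7, a regulatory subunit of protein phosphatase 1, read 64.9, 75.3 and 64.7 CPM in column 1 and 339, 240 and 307 CPM in column 2 of the sh_TMEFF2 libraries. All 3 sh_TMEFF2 libraries were thus high in column 2 alone, although both columns belong to the same library. ITSN1, an endocytic scaffold, MDM2, a ubiquitin ligase, and RP11-632K20.7 behaved alike, and these 5 genes were called in column 2 with a log2 fold change within 0.15 of 0 in column 1. UNKL went from -0.28 in column 1 to 1.73 in column 2. CH17-13I23.3 stayed at or under 0.505 CPM in column 1 of the sh_TMEFF2 libraries and read 45.7, 45.0 and 36.6 CPM in column 2. AC005086.3 and FAM27B were also called from column 2 alone, being too low in column 1 for a test. SMN2 read 69.9, 1484 and 823 CPM in column 2 of the sh_TMEFF2 libraries, so replicate 1 was at the level of the controls.

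Among genes with at least 20 CPM in either column, 13 to 39 per library were over 2-fold higher in column 2 and 12 to 28 over 2-fold higher in column 1. In the sh_TMEFF2 -DHT group 7 genes were so in column 2 of all 3 libraries (ARFGAP2, CH17-13I23.3, ITSN1, MDM2, PPP1R7, RP11-632K20.7 and UNKL) and EML2 and ZNF544 in column 1 of all 3. The sh_scramble -DHT group had EEF2 alone and the sh_TMEFF2 +DHT group PSMD5 alone in column 2 of all 3 libraries. The columns of a library were closer to each other than replicates of a group were, without being copies. The median chi-square per gene was 1.13 to 1.26 between columns and 1.85 to 2.295 between replicates in column 1. Of the 81 called genes tested in both columns, 78 had the same sign in both. What in the columns goes with these rises was not tested. MCAM and VEGFB, called lower, differed by over 1 log2 unit the other way (-2.42 and -2.23 in column 1, -1.06 and -0.77 in column 2).

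**Figure D3:**
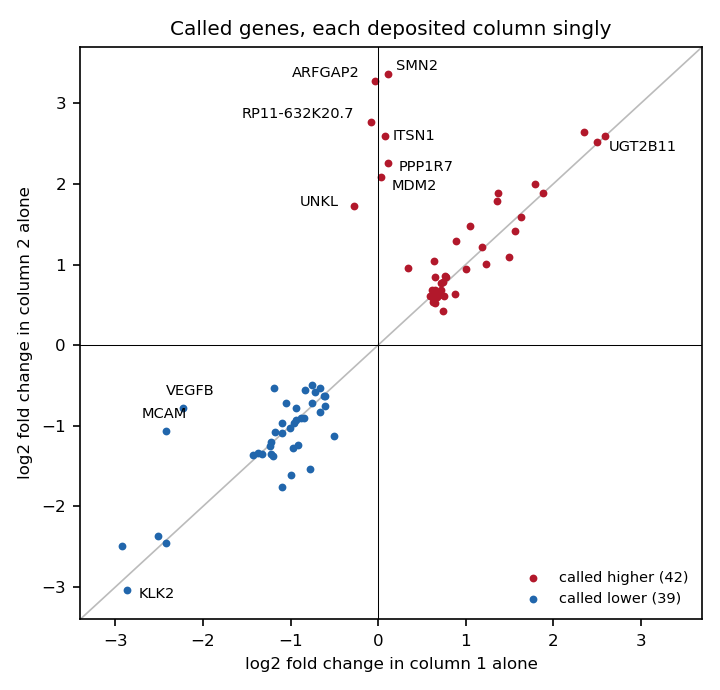
Log2 fold change of sh_TMEFF2 over sh_scramble without DHT in column 1 alone (x axis) and in column 2 alone (y axis) for the 81 called genes tested in both, with the line of equality in gray. Most points lie by the line, and 7 red points (ARFGAP2, SMN2, RP11-632K20.7, ITSN1, PPP1R7, MDM2 and UNKL) stand on or near the vertical axis, high in column 2 alone.

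Among the 65 genes called in the sum but not in both columns singly, several have known roles. TUBB3, a beta-tubulin, read 26.2, 20.8 and 19.3 CPM against 61.6, 54.3 and 37.1 CPM (1.20, edgeR adjusted p 0.0279), and SOX4, a transcription factor, 152, 160 and 147 CPM against 325, 266 and 214 CPM (0.81, adjusted p 0.0409). In both genes the sh_TMEFF2 libraries again ran in the order 1, 2, 3 from high to low. MMP7, a secreted protease, read 8.82, 6.63 and 10.2 CPM against 2.98, 2.48 and 4.73 CPM (-1.33, adjusted p 0.0258). TUBB3, SOX4 and MMP7 each lost the call without sh_TMEFF2 replicate 1 (adjusted p 0.102, 0.144 and 0.10) or replicate 2 (0.103, 0.121 and 0.105). Each also lost it with some sh_scramble -DHT libraries left out. Of the 12 leave-one-out fits, TUBB3 kept its call in 7, SOX4 in 3 and MMP7 in 8. TUBB3 and SOX4 were in none of the lists and were chosen after their values were seen. Of the 88 genes 13 stayed under 5 CPM in both lines, 10.9% of the higher and 19.05% of the lower genes, beside 26.6% of all genes tested. Of the 85 placed on GRCh38, 56 overlapped another annotated gene, and no share over all genes tested is given here.

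Lists of androgen-related genes held few calls beside these. The called share of all genes tested was 0.571%. Of 41 androgen-induced genes outside the kallikreins, 1 was called, lower, and the median log2 fold change was -0.12. In this list 27 genes were under 0 and 14 above. An unadjusted edgeR p under 0.05, in either direction, was met by 13 of the 41, beside 13.5% of all genes tested. FKBP5, a chaperone and strong androgen target, read 55.0, 64.3 and 71.1 CPM against 57.3, 58.6 and 66.1 CPM (-0.06, edgeR adjusted p 0.914), so the lines overlapped. TMPRSS2, a membrane protease, read 139, 138 and 152 CPM against 79.8, 189 and 174 CPM (0.05, adjusted p 0.982). SLC45A3, a luminal transporter, read 72.2, 63.9 and 73.1 CPM against 56.2, 48.7 and 59.2 CPM, without overlap but not called (-0.35, adjusted p 0.184). These 3 were chosen after their values were seen. By the naming rule SORD differed by 0.12, ODC1 by 0.09 and TPD52 by -0.42 (adjusted p 0.490, 0.711 and 0.0810). Of 8 androgen-repressed genes, UGT2B15 and UGT2B17 were called higher, at a list median of 0.17, and CAMK2N1, an inhibitor of a calcium-dependent kinase, was at 0.26 (adjusted p 0.193).

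The androgen receptor itself read 665, 587 and 556 CPM in sh_scramble and 474, 515 and 466 CPM in sh_TMEFF2 libraries. These did not overlap, but the log2 fold change of -0.31 (SE 0.08) missed the adjusted p limit at 0.0771 in edgeR's test. None of the 14 genes of the receptor and its cofactors was called, with a median of -0.02, HSP90AA1 at -0.03 and HOXB13 at -0.08. Of 20 steroid and UGT2B enzymes, the 4 UGT2B genes named above were called higher and none lower, at a median of 0.21. Of 16 luminal markers ACPP, TRPM8 (-1.07, adjusted p 0.0367) and AMACR (-0.61, adjusted p 0.0466) were called lower, at a median of 0.02. The TRPM8 and AMACR calls were lost in 13 of 23 alternative fits each.

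**Figure D4:**
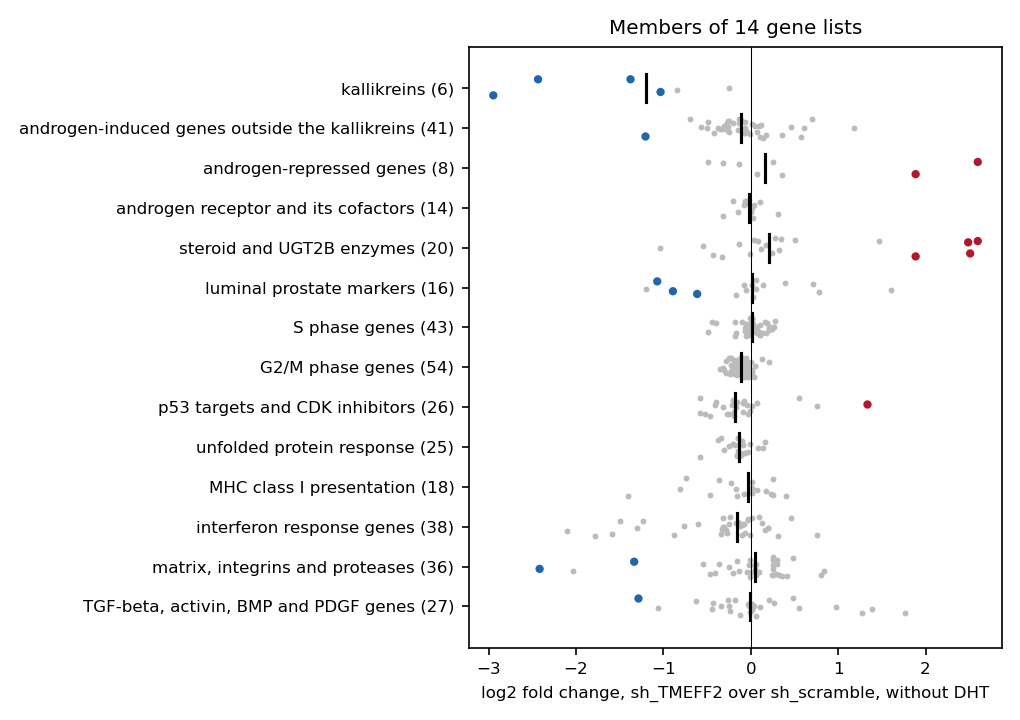
Log2 fold change of sh_TMEFF2 over sh_scramble without DHT for the tested members of 14 gene lists, 1 point a gene, with the number tested in brackets and the list median as a black bar. Colored points are called genes (blue lower, red higher). The kallikrein median is -1.20 and the other medians lie between -0.18 and 0.21.

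The cell cycle, stress and metabolism lists held 1 called gene, where the called share of all genes tested was 0.571%. Of 43 S-phase genes (median 0.01) and 54 G2/M genes (median -0.11, 47 of them under 0) none was called, and PCNA, the replication clamp, was at -0.03. Of 26 p53 targets and CDK inhibitors (median -0.18) MDM2, the p53 ubiquitin ligase, was called higher, from column 2 alone. SESN1, another p53 target, was at -0.58 (edgeR adjusted p 0.108). No member was called among 25 unfolded protein response genes (median -0.13), 28 ATF4 targets (0.02), 26 NRF2 targets and metallothioneins (0.06), 29 glycolysis and hypoxia genes (-0.19), 28 cholesterol synthesis genes (-0.06), 30 fatty acid genes (-0.01), 26 one-carbon and polyamine genes (-0.02), 27 cell death genes (-0.01) or 20 clock genes (-0.05). The fatty acid synthase FASN read 1003 ± 113 and 1007 ± 106 CPM (SD, n = 3). The chaperone HSP90B1 was at -0.30 (adjusted p 0.389) and ATF4 at 0.01.

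Among lists of signaling, surface and immune genes, those with calls had 1 or 2. COL12A1 and MMP7 were called lower of 36 matrix genes (median 0.05), BMPR1B of 27 TGF-beta and BMP genes (-0.01), NRP1 of 26 semaphorin and axon guidance genes (0.07), SLC4A4 of 27 transporters (-0.02) and TRPM8 of 27 ion channel and calcium genes (-0.01). Of 35 receptor tyrosine kinase genes (median 0.00), the ephrin receptor EPHA3 was called higher (1.53, edgeR adjusted p 0.0273) and SPRY1, a feedback inhibitor, lower (-0.87, adjusted p 0.0409). LIF, an interleukin-6 family cytokine, was the single lower call of 12 inflammatory genes (-0.85, adjusted p 0.0214; list median -0.03). SPRY1 kept its call in 1 of the 12 leave-one-out fits, LIF in 8 and EPHA3 in 10. In the columns taken singly, SPRY1 (adjusted p 0.0640 and 0.281) and LIF (0.0898 and 0.167) were called in neither and EPHA3 was not called in column 1 (0.110). SEMA6A, a semaphorin, read 108, 61.4 and 68.3 CPM against 194, 247 and 96.6 CPM and missed the limit (1.17, adjusted p 0.0950). No member was called of 38 interferon response genes (-0.15), 18 genes of MHC class I presentation (-0.03), 27 adhesion and epithelial-mesenchymal genes (0.04), 21 immediate early genes (0.11), 35 Wnt and Notch genes (0.01) or 15 cancer-testis antigens (0.15).

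Markers of other cell types were likewise without a call. The medians were 0.18 over 7 basal, -0.07 over 9 neuroendocrine, 0.21 over 7 fibroblast and smooth muscle, 0.08 over 4 immune and 0.07 over 4 endothelial markers tested. The neuroendocrine marker ENO2 was at -0.66 (edgeR adjusted p 0.203). In all, 13 of the 36 lists held a called gene, and 67 of the 88 called genes were in no list. The 4 of 6 kallikreins called lower and the 4 of 20 steroid and UGT2B enzymes called higher stand beside 0.272% and 0.298% of all genes tested, and these lists were chosen with results of these data known.

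The same lines given DHT supply 6 further libraries outside the 2 groups compared above. They entered the same fit, so its filter, scaling and error estimates, and with them the 88 calls, also rest on these libraries. The 6 libraries without DHT fitted alone gave 27 higher and 19 lower calls. There 467 genes (3.03%) were higher and 577 (3.74%) lower in sh_TMEFF2 cells by the same rule. Of the 88 genes, 48 were called in the same direction with DHT, 25 of the 46 higher and 23 of the 42 lower genes. Of the 23 genes called in both columns, 19 were, 13 of the 14 lower and 6 of the 9 higher. KLK2 (-2.65), KLK3 (-1.94) and KLK4 (-0.81) were called lower with DHT, and UGT2B15 (4.07), UGT2B17 (3.94), UGT2B10 (2.79) and DYNLRB1 (0.72) higher. The 3 genes called in opposite directions were TLL1, a metalloprotease (-0.90 without and 0.91 with DHT), FRMPD2, a scaffold protein (-0.62 and 0.83), and ACSM1, an acyl-CoA synthetase (1.08 and -1.31). Each of the 3 lost its call without DHT when sh_TMEFF2 -DHT replicate 2 was left out (edgeR adjusted p 0.160, 0.128 and 0.108).

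Whether a difference between the lines itself differed with DHT was tested by the interaction in the same edgeR fit, which 761 genes (4.94%) and 21 of the 88 passed at an adjusted p of at most 0.05. UGT2B11 read 30.3, 70.0 and 62.5 CPM in sh_scramble and 88.4, 79.1 and 52.4 CPM in sh_TMEFF2 libraries with DHT. The lines overlapped there (0.43), and the difference of 2.08 between both comparisons passed the test (adjusted p 0.0318). UGT2B17 went the other way, with 24.1, 14.9 and 22.4 CPM against 501, 263 and 178 CPM with DHT and a difference of -2.05 (adjusted p 0.0318). DDC, at 35.5, 38.6 and 33.9 CPM against 195, 163 and 166 CPM with DHT, had a difference of -1.68 (adjusted p 0.000192). TSPAN13 had 0.73 (adjusted p 0.00238). KLK2, KLK3 and KLK4 did not pass (-0.29, -0.49 and -0.23, adjusted p 0.706, 0.459 and 0.616). The column 2 genes ARFGAP2, PPP1R7, ITSN1, RP11-632K20.7 and CH17-13I23.3 were at -0.04, -0.18, 0.33, -0.02 and 0.17 with DHT.

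The androgen-induced list is set out at both DHT levels. Of its 41 genes, 1 was called lower without DHT and 38 with DHT, at medians of -0.12 and -1.46, and 33 passed the interaction. Over all genes tested, 0.272% were called lower without DHT and 3.74% with DHT, and 4.94% passed the interaction. FKBP5 was at -0.06 without and -2.56 with DHT (edgeR adjusted p of the interaction 8.37e-05). The 8 androgen-repressed genes had medians of 0.17 and 1.73, with 2 and 5 called higher and 4 that passed the interaction. Called higher over all genes tested were 0.298% without and 3.03% with DHT. The kallikrein medians were -1.20 and -1.11 over 6 genes, and none of these passed the interaction. As a value set beside these, DHT changed, on the log2 scale, KLK2 by 2.51, KLK3 by 1.96 and KLK4 by 1.06 in the sh_scramble line, and UGT2B15 by -2.21, UGT2B17 by -2.41, DDC by -2.53, ACPP by -1.07 and UGT2B11 by 2.59. Those responses share the sh_scramble -DHT libraries with the comparison of the lines and give no independent support.

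**Figure D5:**
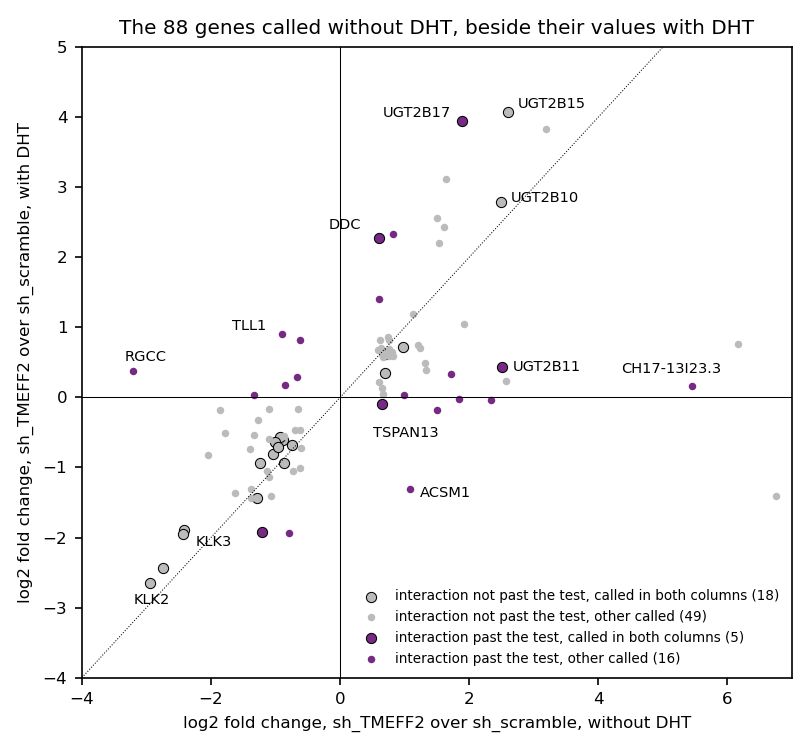
Log2 fold change of sh_TMEFF2 over sh_scramble without DHT (x axis) and with DHT (y axis) for the 88 genes called without DHT, with the dotted line of equality. Purple points passed the interaction and outlined points were called in both columns singly. KLK2 and KLK3 lie by the line, UGT2B17 and DDC above it, and UGT2B11 and CH17-13I23.3 near 0 on the y axis.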

How the data were processed

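RNA-seq of 12 LNCaP libraries (sh_scramble and sh_TMEFF2, with and without DHT, 3 each) was analysed from the gene table, and the comparison without DHT is the subject. According to the submitters' processing notes, reads (75-base pairs) were checked with FastQC, trimmed with Trimmomatic and quantified with kallisto 0.42.3 on GRCh38, and DESeq2 was used for the study's own tests. The authors deposited estimated counts per gene symbol, scaled by transcript length and library size, as 2 columns per library; what the columns stand for was not given in the sources used here, and no column was left out. The 2 columns were summed and rounded to whole numbers.

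All 12 libraries entered 1 fit with a coefficient per group and no block, after edgeR's filter (minimum count 10) and TMM scaling (factors 0.955 to 1.037), with the quasi-likelihood test of edgeR 4.0.16 (R 4.3.3) and Benjamini-Hochberg adjustment over 15419 genes. The common coefficient of biological variation was 0.131. Calls needed a 1.5-fold change or more together with an adjusted p no higher than 0.05, and the same fit was repeated on each column alone. CPM values use the TMM-scaled library sizes, and precision is set by 3 libraries a group and totals near 20906889 counts. On simulated counts over 15110 genes for this comparison, 35.8% of genes changed 1.5-fold, 88.1% of those changed 2-fold and 97.0% of those changed 4-fold were called, with 8 wrong calls. The simulated libraries were drawn independently, so replicate pairing, transductions and differences between columns were not part of them. Genes at low counts were left unchanged there, so these shares do not cover them.

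The members and the 36 lists were chosen with earlier results of these data known. Genes are named by rule: TMEFF2; up to 15 per direction with the largest change among genes called in both columns whose groups do not overlap and reach 5 CPM; up to 5 called members of each list or, where under 3 were called, its most abundant members; the 5 with the smallest interaction p; the 5 that differ most between columns; and every member of a count of 5 or fewer. Of 964 list genes 963 were found in the table and 812 tested.

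Alternatives were DESeq2 1.42.0, limma 3.58.1 (voom on unrounded sums), other scalings and filters, the 6 libraries alone, each column alone, a replicate block and each library left out. Gene positions are from GENCODE 44 and promoters from RefSeq (GRCh38.p14); the UGT2B17 promoter was not analysed here. Values of some items counted in the totals are not reported here.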

Additional observations from a re-analysis of the deposited data

Results flagged for a closer look

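For 21 of the 88 genes called without DHT (23.9%, beside 4.94% of all genes tested), the difference between sh_TMEFF2 and sh_scramble itself differed with DHT by the interaction test of edgeR at an adjusted p of at most 0.05. Values here are the log2 difference without DHT minus that with DHT. Among the 23 genes called in both columns, these included UGT2B11 (2.08), UGT2B17 (-2.05), DDC (-1.68), and TSPAN13 (0.73). For UGT2B17 and DDC the rise was larger with DHT.

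The genes that were high in column 2 alone gave CH17-13I23.3 (5.28), ARFGAP2 (2.38), RP11-632K20.7 (1.86), PPP1R7 (1.67), ITSN1 (1.38) and UNKL (0.96), and their values with DHT lay between -0.18 and 0.33. Called lower without DHT were RGCC, a cell cycle regulator (-3.58), TLL1 (-1.80), FRMPD2 (-1.45), MMP7 (-1.36), LIF (-1.03), PIK3R1, a regulatory subunit of PI3 kinase (-0.96), and FAM105A (1.14). Called higher were ACSM1 (2.38), the lipid transporter ABCA12 (-1.52) and ST7 (-0.81). RGCC read 1.22, 2.06 and 3.28 CPM against 0.192, 0.133 and 0.371 CPM without DHT, and lost its call there without sh_TMEFF2 replicate 1 (adjusted p 0.0872) or 2 (0.103) or sh_scramble replicate 2 (0.0631) or 3 (0.0623). Groups of 3 libraries are too small for a test of single libraries that stand apart.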

How the results depend on the processing

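Counts of calls without DHT (46 higher, 42 lower) moved most with the test and the libraries. DESeq2 gave 97 higher and 83 lower, of 180 genes of which 83 were among the 88, and 67 lower above 5 CPM. Without the filter on low counts there were 88 and 69, with the 6 libraries alone 27 and 19, with column 1 alone 20 and 26, and with column 2 alone 27 and 23. Leaving out 1 library gave 14 to 73 higher and 17 to 44 lower. The genes called in the same direction with DHT (48) numbered 83 with DESeq2, 25 in column 1, 30 in column 2, 73 without the filter and 17 to 56 with a library left out. Genes with an interaction (761) numbered 1199 with DESeq2, 1183 with DESeq2 above 5 CPM, 494 in column 2 and 465 to 765 with a library left out. With a replicate block there were 73 higher, 71 lower and 79 in the same direction with DHT. The main fit did not take the replicate numbers as pairs. The correlation of deviations was over 0.1 in 3 of the 18 same-numbered pairs of the 12 libraries. It ran from -0.0017 to 0.169 in those (median 0.0721, 17 positive) and from -0.140 to 0.0658 in the 36 differently numbered pairs (median -0.0276, 5 positive). Among the 3 libraries of another group, a library correlated best with its own number in 33 of 36 comparisons. This is a hint of pairing from the data and not from the design, and the main fit leaves it out. In column 1 alone ARFGAP2 (-0.036), RP11-632K20.7 (-0.078) and UNKL (-0.28) changed direction, as both columns differ there; no other called gene did under any of the 23 alternatives. Of the 88 genes, 23 kept their call in all 12 leave-one-out fits and 18 in all alternatives in which they were tested. The former include ARFGAP2, ITSN1, PPP1R7, UNKL, CH17-13I23.3, AC005086.3 and FAM27B, which were called in column 2 and not in column 1. CH17-13I23.3, AC005086.3 and FAM27B are also among the 18, since they were too low in column 1 for a test. Where no value shows it, the cause of a lost call was not tested. The list medians stayed within the spread between replicates under all settings but the 5 CPM filter, single columns and left-out libraries without DHT, where 2 to 6 of 36 moved. In simulated counts 64.2% of genes changed 1.5-fold passed the adjusted p and 35.8% were called, since a call also needs an estimated fold of 1.5, and the 2 transductions could not be entered as a batch, since the sources used here do not say which repeat came from which.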
